A study of Mus musculus with 5 samples.

Results

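The genes described here are the mouse S100 calcium-binding proteins and the annexins, taken as every gene whose symbol is S100 followed by a, b or g and an optional number, or Anxa followed by a number. The rule found 27 of the 55397 genes listed, 15 S100 genes and 12 annexin genes. The RNA-seq data came from liver tumours of female mice of the C57BL/6N strain that received a hydrodynamic tail vein injection at 8 weeks of age, a forced injection of plasmid solution that brings DNA into hepatocytes. All mice received CMV-driven Sleeping Beauty transposase, Akt and NICD (the active intracellular part of a Notch receptor) on EF1a-driven transposons, and the doxycycline-dependent activator rtTA encoded with NICD, and all were fed doxycycline (6.25%) from day 21. The 3 Prox1 OE tumours additionally carried FLAG-tagged mouse Prox1 with GFP behind the doxycycline-responsive Tre promoter, whereas the 2 Control tumours carried GFP alone behind it, and per the labels Prox1 overexpression was planned for week 3 to 4. Tumours were collected either once overexpression had lasted a week or when the humane endpoint was reached, and the labels do not assign these to tumours, nor whether tumours of a group came from separate mice. The p-values below therefore measure the spread between these samples.

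S100 proteins are small EF-hand proteins that mostly form dimers and, once calcium is bound, expose a surface that grips target proteins. Some are released from cells and act on receptors such as RAGE and TLR4. Annexins bind negatively charged membrane lipids in the presence of calcium and take part in vesicle traffic, membrane repair and the shaping of the cell cortex. The families meet in fixed partnerships, in which S100A10 holds annexin A2, S100A11 binds annexin A1 and S100A6 binds annexin A11. In the liver several members are more abundant in bile duct epithelium and connective tissue than in hepatocytes.

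Upstream sequence is shown for 5 of the members called changed below, and for the gene pair S100a1 and S100a13, because most S100 genes lie side by side on chromosome 3 and their starts can be compared directly. RefSeq start-site windows of GRCm38.p6 were found for 21 of the 27 members (28 windows). S100a10, S100a14, S100a2, Anxa3, Anxa6 and Anxa13 had none. The 250 bases before each start were searched on both strands for the AP-1 motif TGANTCA, the RBPJ motif TGGGAA (the DNA-binding partner of NICD), the GC box GGGCGG and the TATA box TATAAA. Capitals mark a match on either strand, and the stretches hold only bases outside annotated exons. None is shown for Anxa1, whose window lies inside its annotated first exon.
S100a1 to S100a13, the whole gap between both genes, chr3:90514393-90514434, plus strand: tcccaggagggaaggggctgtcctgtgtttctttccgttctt
S100a11, chr3:93520388-93520487, plus strand: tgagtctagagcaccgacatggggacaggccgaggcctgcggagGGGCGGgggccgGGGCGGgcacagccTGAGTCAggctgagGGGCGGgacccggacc
S100a6, chr3:90612782-90612881, plus strand: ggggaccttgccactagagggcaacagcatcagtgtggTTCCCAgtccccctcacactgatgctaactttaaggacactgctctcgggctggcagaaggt
S100b, chr10:76253736-76253835, plus strand: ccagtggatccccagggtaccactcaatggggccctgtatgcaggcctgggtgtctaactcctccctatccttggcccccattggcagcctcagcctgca
Anxa7, chr14:20480134-20480233, minus strand: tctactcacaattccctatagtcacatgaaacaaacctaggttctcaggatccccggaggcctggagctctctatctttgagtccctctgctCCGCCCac
Anxa9, chr3:95307193-95307292, minus strand: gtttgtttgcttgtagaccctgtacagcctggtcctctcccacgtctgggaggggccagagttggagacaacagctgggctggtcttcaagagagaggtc

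The S100a11 stretch held 3 GC boxes and an AP-1 motif, the S100a6 stretch an RBPJ motif read on the opposite strand, and the Anxa7 stretch a GC box read on the opposite strand. No capital letter belonged to 2 motifs. Among the 28 member windows, AP-1 was found in 4, RBPJ in 7, the GC box in 8 and the TATA box in 6. The shares among all 32851 windows of the same length were 6.75% for AP-1, 21.6% for RBPJ, 32.7% for the GC box and 12.4% for the TATA box. These matches describe letters, and binding was not measured in these tumours.

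Libraries held 48740863 to 56629477 reads, and values below are normalised counts, in which 1 read was worth 0.822 to 1.18. Prox1 stood at 4153 and 4664 in the Control libraries and at 48089.8, 11113 and 8231 in Prox1 OE replicates 1, 2 and 3, above Control in all 3, although its adjusted p was 0.0607 by limma. The label of transformed hepatocytes was compared with markers. All 10 hepatocyte markers were detected and 8 of 10 were called higher in Prox1 OE, with a summed level of 732446 and 1203170 in Control and 2513810 to 3893200 in Prox1 OE. Of the 9 cholangiocyte (bile duct cell) markers tested, 7 were called lower, although the summed level, most of which was Spp1, was 758943 and 828042 against 523659 to 707881. Fewer cells of a type and less RNA per cell cannot be told apart in bulk tumour RNA. Among stellate cell and fibroblast markers 5 of 11 were lower and 1 higher. Their sums, mostly of the collagens Col1a1, Col1a2 and Col3a1, were 140420 and 143173 against 77891 to 91598. Among mesothelium markers 3 of 4 were lower, with sums of 153 and 287 against 22.4 to 49.1. Macrophage markers were higher for 5 of 10, T and NK cell markers for 4 of 6, endothelium markers for 2 of 7, B cell markers for 1 of 3 and erythroid markers for 1 of 3, with none called lower in these lists. Monocyte markers included 1 of 5 lower and Schwann cell markers 1 of 3 lower, and none of the 6 neutrophil markers tested was called. For comparison, 17.1% of all genes tested were called higher and 16.2% lower. The part of these cell types in the results below was not tested unless stated.

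Expression of 24 of the 27 members was high enough to test (mean normalised count of at least 10). A gene is called here when limma gave it an adjusted p under 0.05, with Benjamini-Hochberg adjustment over all 17105 genes tested. Prox1 OE tumours had more S100a10 and Anxa7, and less S100a14, S100b, S100a6, S100a11, Anxa3, Anxa9 and Anxa1 transcript than Control tumours. These 9 calls were 37.5% of the members tested, against 33.3% of all genes. The 2 members called higher were 8.33%, against 17.1% of all genes called higher, and the 7 called lower were 29.2%, against 16.2% of all genes called lower. Groups did not overlap for 14 of the 24 members (58.3%), compared with 63.3% of all genes, so the share of separated members was near the background. With count models on the recovered reads, edgeR called 8 members (33.7% of all genes) and DESeq2 called 10 (38.9% of all genes).

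Calls were made for 5 of 12 S100 genes and 4 of 12 annexin genes. Among 12 S100 genes tested, 1 rose and 4 fell, and the median log2 fold change was 0.01. For the 12 annexin genes, 1 rose and 3 fell, with a median of -0.22, compared with -0.02 over all genes tested. When total counts replaced size factors, the median of all genes moved to -0.44, that of S100 genes to -0.41 and that of annexins to -0.65. Single libraries also moved these medians, that of S100 genes to 0.26 without Control replicate 1 and -0.15 without Control replicate 2, and that of annexins to -0.35 without Prox1 OE replicate 1 and -0.076 without Prox1 OE replicate 3. With the other libraries left out in turn the S100 median ran from -0.11 to 0.07 and the annexin median from -0.32 to -0.21. Leaving out Control replicate 1 or 2 in turn reduced the S100 genes called lower to 1 and 2 and the annexins called higher to 0 and 0, and S100 genes called higher went to 0 without Control replicate 1 and to 3 without Prox1 OE replicate 1. Calls over all 17105 genes changed as well, from 5702 to 1158 without Control replicate 1, 2270 without Control replicate 2 and 7491 without Prox1 OE replicate 1. Calls for S100a14, Anxa3 and Anxa9 were kept with any single library left out.

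**Figure D1:**
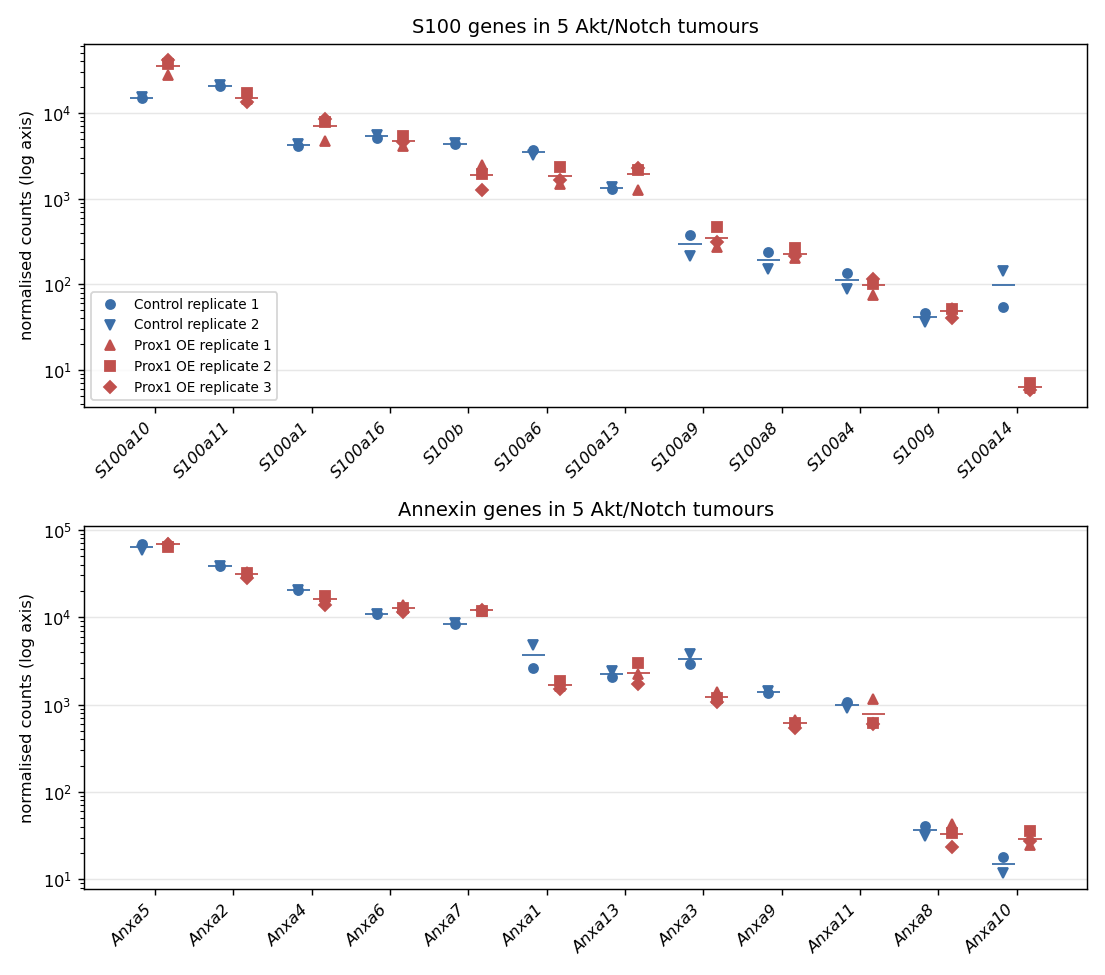
Normalised counts (log axis) of the 12 S100 genes and 12 annexin genes tested, ordered by mean level. Blue circles and triangles are the 2 Control libraries, red symbols the 3 Prox1 OE libraries, and bars the group means. S100a10 sits between 27495 and 41013 in Prox1 OE, above both Control values, and S100a14 falls to between 5.79 and 7.08.

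S100a10, the annexin A2 ligand that differs from other S100 proteins in needing no calcium to hold its partner, was the S100 gene that rose. S100a10 (ENSMUSG00000041959, chr3:93555080-93564643, plus strand) had 14866 and 15304 normalised counts in Control replicates 1 and 2, and 27495, 37143 and 41013 in Prox1 OE replicates 1, 2 and 3. Control tumours were nearly equal, whereas every Prox1 OE tumour was well above them and the lowest of these was replicate 1. The mean increased from 15085 ± 309 (SD, n = 2) to 35217 ± 6962 (SD, n = 3), a 2.33-fold rise (log2 fold change 1.20 ± 0.19 SE, adjusted p = 0.00452 by limma). Without Control replicate 1 the log2 fold change was 1.18 and the adjusted p 0.0574. Its partner Anxa2 (chr9:69453620-69491795, plus strand), which links membranes to actin, did not follow. Anxa2 measured 38182 and 38072.5 in Control and 32942, 32016 and 27760.1 in Prox1 OE. All 3 Prox1 OE values lay below Control, but the change of -0.31 ± 0.15 (SE) did not pass the test (adjusted p = 0.146 by limma). The S100a10 count per Anxa2 count was therefore 0.389 and 0.402 in Control and 0.835, 1.16 and 1.48 in Prox1 OE. These groups did not overlap, and with 2 against 3 samples the smallest two-sided exact permutation p is 0.1, so no test of the ratio was made.

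S100a11 (ENSMUSG00000027907, chr3:93520488-93526287, plus strand), the partner of annexin A1, is the nearest S100 neighbour of S100a10 and moved the other way. S100a11 was at 20848 and 20946 normalised counts in Control and at 14695, 17157 and 13485 in Prox1 OE. The Control tumours differed by less than the Prox1 OE tumours did among themselves, and the groups were apart. The log2 fold change was -0.47 ± 0.14 (SE, adjusted p = 0.0391 by limma). This call was the least stable of the 9, as its adjusted p became 0.218 without Control replicate 1, 0.196 without Control replicate 2, 0.0906 without Prox1 OE replicate 3, 0.0597 with edgeR, 0.0675 without the filter and 0.0741 without the variance trend. A processed copy of the gene, S100a11-ps, held at most 1.16 normalised counts in any library, and how reads shared between copies had been counted was not given in the sources used here. The S100a10 count per S100a11 count was 0.713 and 0.731 in Control and 1.87, 2.16 and 3.04 in Prox1 OE. Anxa1 itself is described with the annexins below. S100a11 counts per Anxa1 count were 7.93 and 4.41 in Control and 8.90, 9.33 and 8.96 in Prox1 OE, and the spread in Control came from Anxa1.

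S100a6 (calcyclin; ENSMUSG00000001025, chr3:90612882-90624181, plus strand) is a protein of epithelial and connective tissue cells that binds annexin A11 and the ubiquitin ligase adaptor CACYBP. Its counts were 3724 and 3235 in Control, and 1484, 2325 and 1672 in Prox1 OE. The highest Prox1 OE tumour remained below the lowest Control tumour. The fall was 1.90-fold in means (log2 fold change -0.95 ± 0.20 SE, adjusted p = 0.0107 by limma), and the adjusted p was 0.102 without Control replicate 1. Anxa11 (chr14:25842156-25886804), which also tethers RNA granules to lysosomes, had 1078 and 922 counts in Control and 1163, 614 and 591 in Prox1 OE. Prox1 OE replicate 1 was above both Control tumours and the other two below, so the groups overlapped (log2 fold change -0.41 ± 0.29 SE, adjusted p = 0.309 by limma). Without replicate 1 the value was -0.73 with an adjusted p of 0.0085. The antisense gene Anxa11os lies in the same region and was listed at 0 in all libraries.

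S100b (ENSMUSG00000033208, chr10:76253853-76261159, plus strand) encodes a protein best known from glia and pigment cells, and is the S100 gene outside chromosome 3 that was called. Control tumours had 4313 and 4421 normalised counts. Prox1 OE tumours had 2439.7, 1962 and 1251, all of them lower and spread over a wider range than Control. The mean fell 2.32-fold (log2 fold change -1.27 ± 0.25 SE, adjusted p = 0.0100 by limma), while the adjusted p was 0.0722 without Control replicate 1 and 0.0608 without Control replicate 2. Since S100b is used as a Schwann cell marker, other Schwann cell genes were read beside it. Sox10, their defining regulator, was between 0 and 4.11 in all libraries. Mbp had 1821 and 1896 in Control and 639 to 916 in Prox1 OE and was the 1 gene of 3 tested that was lower, so that the summed list went from 1910.2 and 1965 to between 731 and 1002. The gene Dip2a overlaps S100b on the other strand, and whether counting used strand was not given in the sources used here, although the libraries kept strand information (dUTP).

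S100a14 (ENSMUSG00000042306, chr3:90526856-90528837, plus strand), a protein of epithelial surfaces, had the largest fall of any member. It was at 54.2 and 142 normalised counts in Control and at 6.13, 7.08 and 5.79 in Prox1 OE. Both Control tumours were far above, although they differed from each other, and the Prox1 OE tumours were nearly equal at a few reads each. The ratio of means was 15.5 (log2 fold change -3.60 ± 0.49 SE, adjusted p = 0.00322 by limma). The size depended on the Control libraries, with -4.29 without replicate 1 and -2.92 without replicate 2, and on the pseudocount, with -2.60 at a pseudocount of 10. S100a14 was called under every alternative that tested it, and a minimum mean of 50 left it out. Levels of single mesothelium and cholangiocyte markers were read beside it. Msln was at 123 and 55.9 in Control, with the higher value in the tumour that had less S100a14, and at 1.02 to 3.54 in Prox1 OE, and the epithelial claudin Cldn4 was at 140.5 and 270.4 against 13.9 to 57.3. Of the cholangiocyte markers tested, Spp1 and Muc1 were not called.

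S100a1 and S100a13 start back to back, S100a1 (chr3:90511034-90514392) on the minus strand and S100a13 (chr3:90514435-90524581) on the plus strand, with the 42 bases shown above between them. S100a1 regulates calcium handling, mainly known from muscle, and S100a13 assists the release of signal proteins that lack a secretion signal, such as FGF1. S100a1 had 4098 and 4342 normalised counts in Control and 4673, 7776 and 8576 in Prox1 OE. S100a13 had 1286 and 1368 in Control and 1279, 2181 and 2303 in Prox1 OE. In both genes Prox1 OE replicates 2 and 3 stood high and replicate 1 stood at or near the Control level. Neither passed the test, with log2 fold changes of 0.68 ± 0.25 (SE, adjusted p = 0.0679 by limma) and 0.49 ± 0.25 (SE, adjusted p = 0.166 by limma). Leaving out Prox1 OE replicate 1, the tumour with the most Prox1 transcript, gave 0.95 (adjusted p = 0.00362) and 0.76 (adjusted p = 0.00433), and DESeq2 called S100a1 with all libraries (adjusted p = 0.0166). The S100a1 count per S100a13 count was 3.19 and 3.17 in Control and 3.65, 3.57 and 3.72 in Prox1 OE, so that the ratio varied less between tumours than either gene did. Every Prox1 OE ratio still lay above both Control ratios, and no test of the ratio was made.

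S100a8 and S100a9 form calprotectin, an antimicrobial and inflammatory heterodimer carried by neutrophils and monocytes. S100a8 (chr3:90668978-90670035) had 237 and 150.0 normalised counts in Control and 201, 268 and 212 in Prox1 OE. S100a9 (chr3:90692632-90695721) had 376 and 217 in Control and 269.9, 466 and 312 in Prox1 OE. Groups overlapped for both, and log2 fold changes were 0.25 ± 0.26 (SE, adjusted p = 0.473 by limma) and 0.25 ± 0.31 (SE, adjusted p = 0.564 by limma). The genes kept nearly the same proportion in all tumours, with 1.58 and 1.45 S100a9 counts per S100a8 count in Control and 1.34, 1.74 and 1.48 in Prox1 OE. The summed neutrophil list was likewise overlapping, at 771 and 576 in Control and 579.8 to 793 in Prox1 OE, and Ly6g was between 0 and 3.47.

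The remaining S100 genes showed no call. S100a16, a widely expressed member, had 5149.6 and 5488 normalised counts in Control and 4069.5, 5333 and 4626 in Prox1 OE (log2 fold change -0.19 ± 0.14 SE, adjusted p = 0.315 by limma). S100a4, which binds non-muscle myosin and marks fibroblasts and motile cells, lay between 74.6 and 137 in all tumours (adjusted p = 0.657 by limma), at log2 fold change -0.19 ± 0.31 (SE). S100g, the calbindin of intestinal calcium uptake, lay between 36.4 and 53.2 (log2 fold change 0.22 ± 0.31 SE, adjusted p = 0.614 by limma). Groups overlapped for all 3. S100a2, S100a3 and S100a5 were too low to test, with at most 2, 5 and 2 reads in any library. S100a2 and S100a3 overlap on the same strand and their reads may not be separable.

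Among annexins, Anxa3 had the largest change. Anxa3 (ENSMUSG00000029484, chr5:96793339-96845966, plus strand) is found in neutrophils and in liver progenitor and tumour cells. Its counts were 2932 and 3755 in Control and 1392, 1200.0 and 1073 in Prox1 OE. Groups were far apart compared with their own spread, and the mean dropped from 3344 ± 582 (SD, n = 2) to 1222 ± 160.5 (SD, n = 3), 2.74-fold lower (log2 fold change -1.45 ± 0.16 SE, adjusted p = 0.00246 by limma). The summed neutrophil markers given above overlapped between groups, as did 4 of the 6 tested, whereas Mmp9 (173 and 118 against 50.9 to 117.6) and Ltf (22.2 and 40.7 against 11.2 to 21.2) were lower in 3 of 3 Prox1 OE tumours without a call. Anxa9 (ENSMUSG00000015702, chr3:95296096-95307176, minus strand), an annexin that lacks the usual calcium-binding sites, had 1349.8 and 1444 counts in Control and 663, 618 and 542 in Prox1 OE. All 3 Prox1 OE tumours had less than the lowest Control tumour by a wide margin, at log2 fold change -1.20 ± 0.14 (SE, adjusted p = 0.00255 by limma). Mindy1 overlaps Anxa9 on the other strand and 6330562C20Rik on the same strand, and Gm42603 overlaps Anxa3 on its own strand, so reads may be shared between them.

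Anxa1 (ENSMUSG00000024659, chr19:20373428-20390944, minus strand) encodes an anti-inflammatory protein that acts through formyl peptide receptors and inhibits cytosolic phospholipase A2. It measured 2629 and 4747 normalised counts in Control and 1650.3, 1839.6 and 1506 in Prox1 OE. The Prox1 OE tumours were close to each other, whereas Control replicate 2 stood far above replicate 1. The log2 fold change was -1.09 ± 0.24 (SE, adjusted p = 0.0131 by limma), and -0.66 with an adjusted p of 0.0684 without Control replicate 2. For its receptors, Fpr1 had a mean of 78.3 ± 27.1 (SD, n = 2) in Control and 152 ± 69.4 (SD, n = 3) in Prox1 OE, and Fpr2 had 34.6 ± 1.00 (SD, n = 2) and 49.6 ± 16.6 (SD, n = 3). Both overlapped between groups and neither was called (adjusted p = 0.131 and 0.384 by limma). The gene 1500015L24Rik overlaps Anxa1 on the other strand. Pla2g4a, the cytosolic phospholipase, fell by 1.05 ± 0.30 (SE) on the log2 scale (adjusted p = 0.0328 by limma), a call that was lost without any one of Control replicate 1 (adjusted p = 0.189), Control replicate 2 (0.139), Prox1 OE replicate 2 (0.0874) and Prox1 OE replicate 3 (0.0798).

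Anxa7 (synexin; ENSMUSG00000021814, chr14:20455260-20480133, minus strand), which aggregates secretory granules and fuses membranes, was the annexin that rose. Control tumours had 8289 and 8592 normalised counts and Prox1 OE tumours had 11899.8, 11858 and 12102. Tumours within a group differed by a few percent, and the groups were 1.42-fold apart (log2 fold change 0.50 ± 0.11 SE, adjusted p = 0.0127 by limma). This small difference depended on the scaling, since with total counts it was 0.07 (adjusted p = 0.666), while the median of all genes was then -0.44. With Control replicate 1 or 2 left out the adjusted p was 0.147 or 0.0992, at log2 fold changes of 0.48 and 0.53.

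The most abundant annexins were not called. Anxa5, which coats phosphatidylserine on damaged membranes and dying cells, had 69156 and 58529 normalised counts in Control and 70665, 63872 and 69109.7 in Prox1 OE. Anxa5 values were interleaved between groups (log2 fold change 0.09 ± 0.17 SE, adjusted p = 0.710 by limma). Anxa4, an annexin of secretory epithelia including bile ducts, had 20534 and 20251 in Control and 16925, 17235 and 13720.3 in Prox1 OE. Anxa4 was lower in 3 of 3 Prox1 OE tumours but did not pass the test (log2 fold change -0.36 ± 0.15 SE, adjusted p = 0.0936 by limma). Anxa6, an annexin with an extended repeat core that also binds endosomes and cholesterol-rich membranes, had 10738 and 10992 in Control and 13842.5, 12692 and 11497 in Prox1 OE. Anxa6 was above Control in 3 of 3 tumours at 0.22 ± 0.13 (SE, adjusted p = 0.219 by limma). With total counts Anxa5 and Anxa6 took the opposite sign (-0.34 and -0.21), and Anxa2 (adjusted p = 0.00767), Anxa4 (adjusted p = 0.00727) and S100a16 (adjusted p = 0.0110) were called lower.

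Anxa13, an epithelial annexin anchored by a fatty acid and annotated here as a processed transcript, had 2090.1 and 2432 normalised counts in Control and 2231, 2949 and 1712 in Prox1 OE. The tumours of both groups were mixed, and the log2 fold change was -0.01 ± 0.22 (SE, adjusted p = 0.981 by limma), with the opposite sign but no call under TMM factors, edgeR and DESeq2. Anxa8 and Anxa10 were scarce. Anxa8, of stratified epithelia, lay between 23.1 and 42.9 in all tumours (log2 fold change -0.14 ± 0.38 SE, adjusted p = 0.795 by limma). Anxa10, of the stomach lining, had 18.1 and 11.9 in Control and 24.5, 35.4 and 27.8 in Prox1 OE, all 3 above Control (log2 fold change 0.93 ± 0.39 SE, adjusted p = 0.104 by limma). It passed when limma was run without the variance trend (adjusted p = 0.0495).

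**Figure D2:**
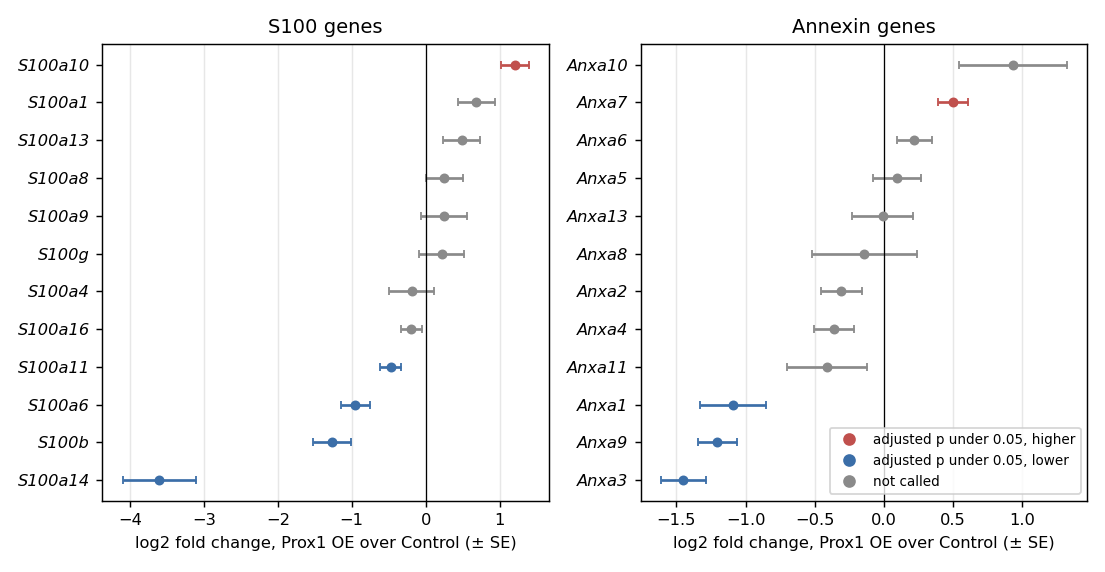
Log2 fold change of each member tested, Prox1 OE over Control, with its SE from limma. Red and blue mark members called higher and lower. S100a10 (1.20) and Anxa7 (0.50) are to the right of 0, and S100a14 (-3.60) is farthest to the left.

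Levels between genes were compared as normalised counts per kb of exon, with exons of all annotated transcripts joined. In Control S100a11 ranked first (40894 per kb), followed by Anxa5 (35927), S100a10 (12446), Anxa2 (10219) and S100a1 (6080.5). In Prox1 OE the same 5 genes led in another order, with Anxa5 (38201), S100a11 (29574), S100a10 (29057), S100a1 (10098) and Anxa2 (8284). Per kb, the means of S100a11 and S100a10 were far apart in Control and lay close together in Prox1 OE. Before division by length, the means of S100a11 and S100a10 were 20897 and 15085 in Control and 15113 and 35217 in Prox1 OE. S100a11 and Anxa5 were close in Control, where the Anxa5 counts of both tumours spread more widely than those of S100a11. S100b moved from rank 9 to 13, S100a14 from 22 to 24 and Anxa7 from 13 to 10. Joined exons are longer than most transcripts, so these levels are lower bounds for a gene with many alternative ends.

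The 13 S100a genes lie within 3053.6 kb of chromosome 3, at chr3:90511034-93564643 in GRCm38. From S100a1 to S100a9 they are closely spaced, 2824.8 kb then separates S100a9 from S100a11, and S100a11 and S100a10 lie 28.8 kb apart. Differences between neighbours were not tested. S100a1 and S100a13 had values of 0.68 and 0.49, and S100a8 and S100a9 of 0.25 each, without a call. S100a14, which fell, lies 2.3 kb from S100a13, which stood above Control in 2 of 3 tumours, and 8.4 kb from S100a16, which was not called. S100a11 fell and S100a10 rose. The stretch between the outer members also holds 108 other genes, mainly of the epidermal differentiation complex that builds skin barrier, of which 10 were expressed enough to test. Of these, 1 was called higher (Sprr1a, log2 fold change 0.87) and 3 lower (Pglyrp4, -4.45, Ivl, -1.72, and Lce6a, -1.46), which were chosen for naming after their values were seen. Over all genes tested, 17.1% were called higher and 16.2% lower.

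**Figure D3:**
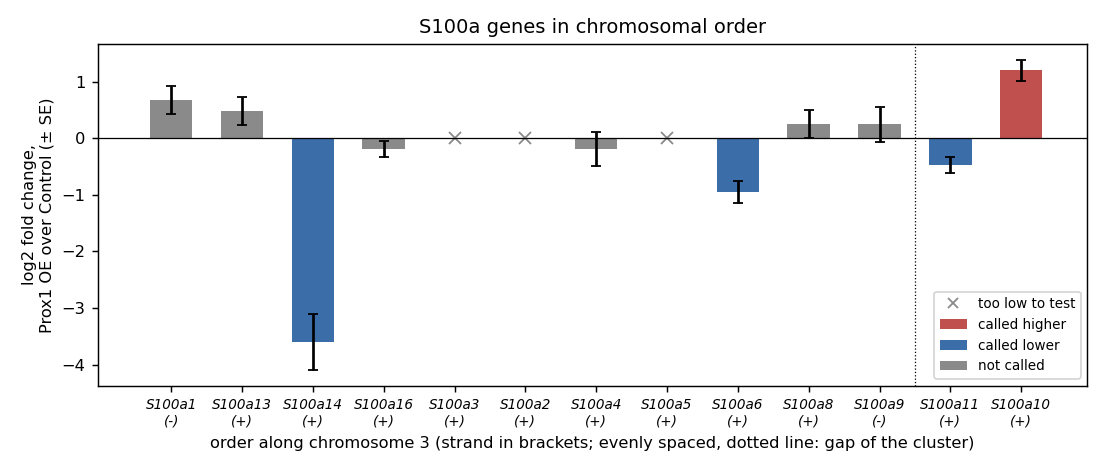
Log2 fold change (bars, with SE) of the 13 S100a genes in their order along chromosome 3, evenly spaced and not to scale of distance. Crosses mark the 3 genes too low to test, and the dotted line stands for the 2824.8 kb gap. Bars of opposite direction adjoin for S100a13 (0.49) and S100a14 (-3.60) and for S100a11 (-0.47) and S100a10 (1.20).

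Receptors and binding partners were taken from a list of 42 genes that holds no member, of which 39 were tested. The list was chosen with earlier results of these data known, so the shares below describe it and test nothing. In Prox1 OE 4 were called higher (10.3%, against 17.1% of all genes) and 16 lower (41.0%, against 16.2% of all genes), with a median log2 fold change of -0.29. With either Control replicate left out, 9 were called lower, and 0 or 2 were called higher without Control replicate 1 or 2, while calls over all genes went from 5702 to 1158 or 2270. With total counts 29 were called lower and 3 higher, beside 8308 calls over all genes. Among 5 receptors of extracellular S100 proteins, 1 was higher (20%, against 17.1% of all genes) and 2 were lower (40%, against 16.2% of all genes). Ager, which encodes RAGE, the receptor of S100B and S100A8/A9, had 355 and 326 normalised counts in Control and 119.6, 133 and 105 in Prox1 OE. Ager was thus lower in 3 of 3 Prox1 OE tumours (log2 fold change -1.51 ± 0.20 SE, adjusted p = 0.00301 by limma), and it was called with any library left out. Alcam, a RAGE-related adhesion protein, fell by 0.56 ± 0.12 (SE, adjusted p = 0.0119 by limma) on the log2 scale, and was not called without Control replicate 1 (adjusted p = 0.105) or 2 (0.102). Cd36, the scavenger receptor that also takes up fatty acids, rose by 1.14 ± 0.22 (SE, adjusted p = 0.00859 by limma), and was not called without Control replicate 1 (0.0697) or 2 (0.0590). Tlr4, the other receptor of S100A8/A9, averaged 131 ± 7.13 (SD, n = 2) in Control and 148 ± 27.2 (SD, n = 3) in Prox1 OE and was not called (adjusted p = 0.637 by limma).

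Intracellular partners of S100 proteins included 4 lower (44.4%, against 16.2% of all genes) and 0 higher (against 17.1% of all genes) of 9 tested. Ahnak, the giant scaffold that S100A10 and annexin A2 recruit to the membrane, fell by 0.79 ± 0.10 (SE, adjusted p = 0.00301 by limma) on the log2 scale and was called with any library left out. Its relative Ahnak2 (-0.97, adjusted p = 0.0424 by limma), the S100A4 target Myh9 (-0.61, adjusted p = 0.0182 by limma) and the scaffold Iqgap1 (-1.03, adjusted p = 0.00854 by limma) were lower with all libraries. Ahnak2 was not called without either Control replicate or Prox1 OE replicate 2 or 3 (adjusted p from 0.0935 to 0.25), Myh9 without either Control replicate or Prox1 OE replicate 2 (0.0565 to 0.137), and Iqgap1 without either Control replicate (0.0519 and 0.0755). Of 7 annexin partners tested, 4 were lower (57.1%, against 16.2% of all genes) and 0 higher (against 17.1% of all genes). Beside Pla2g4a, they were the membrane repair proteins Dysf (-0.89, adjusted p = 0.00357 by limma) and Myof (-1.38, adjusted p = 0.00690 by limma) and the hyaluronan receptor Cd44 (-1.35, adjusted p = 0.00261 by limma). Myof was not called without Control replicate 1 (adjusted p = 0.0653). The summed stellate cell and fibroblast markers given above, mostly the collagens Col1a1, Col1a2 and Col3a1, were lower in the same 3 tumours. In that list Lrat was called higher (log2 fold change 1.09, adjusted p = 0.00475 by limma). Dcn, Lum, Pdgfra, Pdgfrb and Tagln were not called. The part of these cells in the partner results was not tested.

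The complex of S100A10 and annexin A2 gathers plasminogen and its activator at the cell surface, and genes of this system changed in both directions. Plg, the plasminogen gene expressed by hepatocytes, had 13650.4 and 22525 normalised counts in Control and 40502, 45502 and 69758 in Prox1 OE. Plg rose in 3 of 3 tumours (log2 fold change 1.53 ± 0.29 SE, adjusted p = 0.00848 by limma), together with the hepatocyte markers above, and was not called without Control replicate 1 (adjusted p = 0.0929). The activators Plat (-0.97, adjusted p = 0.00272 by limma) and Plau (urokinase, -1.10, adjusted p = 0.00766 by limma) were lower. The urokinase receptor Plaur was lower as well (-1.47, adjusted p = 0.00525 by limma). Plau was not called without Control replicate 1 (adjusted p = 0.0918), nor was Plaur without Control replicate 2 (0.0521). Serpinb2, an inhibitor of urokinase, had 22 and 63 reads in Control and 0 reads in each Prox1 OE library, and was at least 10.6-fold lower when 3 reads per library are taken as the floor, a bound that was 15.9-fold without Control replicate 1 and 5.38-fold without Control replicate 2. The median of the whole list was -0.29 also with Serpinb2 at this bound.

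Of 10 other EF-hand calcium sensors tested, 2 were higher (20%, against 17.1% of all genes) and 1 was lower (10%, against 16.2% of all genes). The share called in either direction was 30%, near the 33.3% of all genes. Calml4, a calmodulin-like protein of brush borders, rose by 1.34 ± 0.27 (SE, adjusted p = 0.00961 by limma) and Pef1, a penta-EF-hand protein, by 0.54 ± 0.11 (SE, adjusted p = 0.00904 by limma) on the log2 scale. Both were not called without Control replicate 1 (adjusted p = 0.10 for Calml4 and 0.103 for Pef1), and Pef1 was not called without Control replicate 2 (0.0788) or with total counts (0.11, adjusted p = 0.475). Calb1, a cytosolic calcium buffer, had 60.8 and 611 normalised counts in Control and 5.11, 1.18 and 12.7 in Prox1 OE. Control tumours differed widely from each other and both were above Prox1 OE (log2 fold change -5.10 ± 1.07 SE, adjusted p = 0.0114 by limma), and Calb1 was not called without Control replicate 2 (-3.44, adjusted p = 0.0697). Its value was -6.75 without Control replicate 1, -4.41 and -5.74 without Prox1 OE replicates 2 and 3, and -3.74 with a pseudocount of 10.

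**Figure D4:**
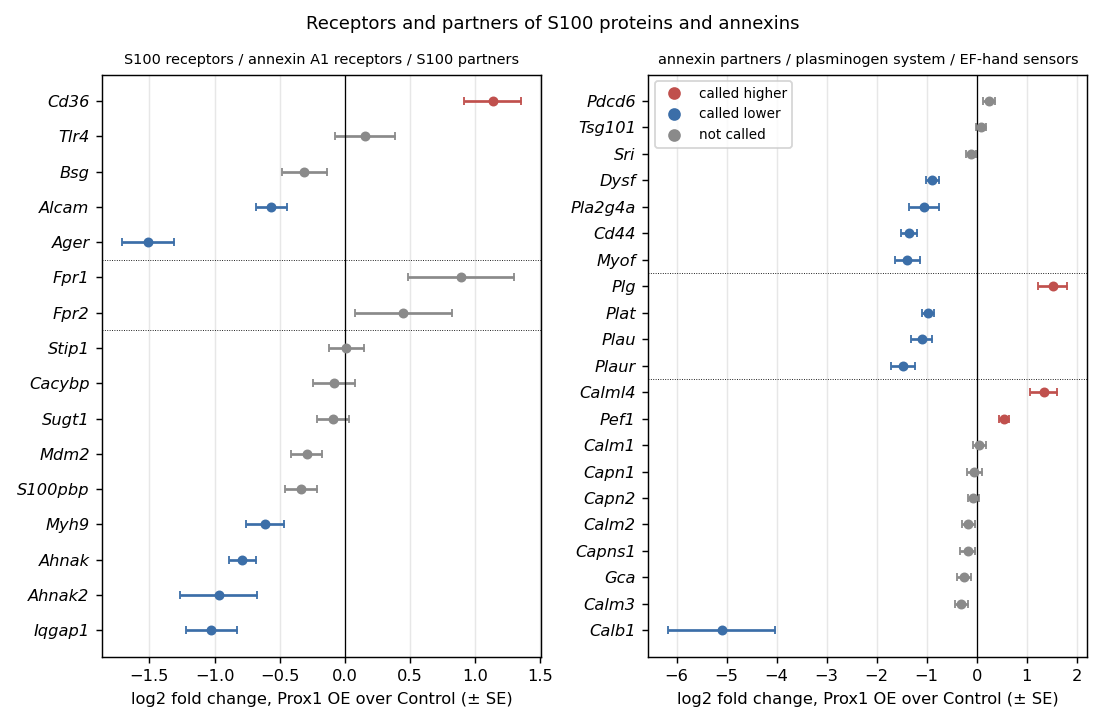
Log2 fold change, Prox1 OE over Control, with SE, of 37 receptors and partners, grouped by dotted lines in the order named above each panel. Serpinb2 is left out because all 3 Prox1 OE libraries had 0 reads. Most coloured points are blue, and Plg (1.53), Calml4 (1.34), Cd36 (1.14) and Pef1 (0.54) are red.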

How the data were processed

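RNA-seq of 5 mouse liver tumours (2 Control, 3 Prox1 OE) was analysed from the deposited table, whose signal values are reads that the authors mapped to mm10 with STAR and divided by DESeq2 size factors. Whole reads were recovered for 100% of values (tolerance 1e-06). Columns without a sample numbered 0. The deposited table of the authors' own comparison (fold changes and p-values) was not used. Symbols matched 55137 of 55397 identifiers, and positions came from GENCODE vM21.

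limma 3.58.1 (R 4.3.3; lmFit, eBayes with trend, two-sided) was fitted on log2(normalised count + 1) for 17105 genes with a mean of at least 10, so fold changes of low genes are understated. The procedure was tested on simulated data. Alternatives were other scalings, pseudocounts of 0.1 and 10, no filter or a mean of 50, no trend, edgeR 4.0.16, DESeq2 1.42.0, a replicate block and each library left out. Floors of 3 reads (2.46 to 3.54 normalised counts) and read totals cover counting error only. Members and lists were chosen with earlier results of these data known. All members were named, and of the partner list the called genes with Ager, Tlr4, Fpr1 and Fpr2, apart from results that are not reported here. Proteins, which the naming rule also called for, were not printed here.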

Additional observations from a re-analysis of the deposited data

How the results depend on the processing

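Of 356 values for the 24 members tested, 314 kept direction and side of the threshold, 15 lost a call (6 genes), 9 gained one (7 genes) and 18 changed sign, 0 of them in called members. Of 343 values for 23 named partner genes, 31 lost a call (13 genes) and 1 changed sign (Tlr4, -0.27 with total counts). S100 genes called higher were 2 instead of 1 with DESeq2 and with the replicate block. Annexins called lower were 5 instead of 3 and annexins called higher 0 instead of 1 with total counts, and 2 were called higher without the variance trend. With total counts 29 instead of 16 partner genes were lower, while 8308 instead of 5702 of all genes were called and the median of all genes was -0.44. Leaving out each library in turn gave 1 to 4 S100 genes lower, 0 to 3 higher, 2 to 4 annexins lower, 0 to 1 higher, and 9 to 19 partner genes lower and 0 to 4 higher, against 1158 to 7491 calls over all genes. Total counts turned Anxa5 to -0.34, Anxa6 to -0.21, S100a8 to -0.18, S100a9 to -0.18 and S100g to -0.20. Anxa13 became 0.0084 with TMM, 0.042 with edgeR, 0.030 with DESeq2 and 0.19 with the replicate block, and Anxa8 0.092 with the block. With libraries left out Anxa13 ran from -0.21 to 0.19, Anxa5 from -0.028 to 0.21, Anxa8 from -0.34 to 0.092, S100a4 from -0.51 to 0.13, S100a8 from -0.076 to 0.58 and S100a9 from -0.15 to 0.65. The cause was not tested.

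The labels tie nothing to a replicate number, so the samples were not treated as paired. Same-numbered tumours had correlations of 0.14 and 0.02 between their deviations from the group means. The deviations of the 2 Control libraries are exact opposites, so these values cannot decide whether samples were paired. The replicate block uses only the 2 shared numbers and called 5262 of all genes instead of 5702, with 9 members, among them S100a1 (adjusted p = 0.0475) but not S100a11 (0.0954). Without a Control replicate the lone sample left is assumed to vary like the others. Genes at a few reads (S100a2, S100a3, S100a5) were limited by depth.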

Other observations

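Relatives of the families that the rule leaves out were scarce or not called. S100a7a was at 1.02 to 2.54 normalised counts in all 5 tumours, and S100z was at 5.75 and 2.54 in Control and at 3.07, 2.36 and 0 in Prox1 OE. S100pbp, a nuclear S100-binding protein, had 1370.4 and 1466 in Control and 1206, 1113 and 1054 in Prox1 OE, without a call (log2 fold change -0.34, adjusted p = 0.0703 by limma).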
